A study of Homo sapiens with 8 samples.

Results

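The 70 protein-coding genes of the SOX and forkhead transcription factor families were examined for listed changes in RBBP4 and P300 occupancy after knockdown of CSNK2B. They were chosen by symbol from 20033 RefSeq protein-coding genes of GRCh38, as 19 SOX genes and 51 genes with a forkhead symbol, FOXM1 not included. FOXL2NB carries such a symbol but is no forkhead gene, and the 6 FOXD4 copies are near-identical to each other. A region belonged to a gene when it overlapped the gene's span extended by 3000 bp on both sides. By this rule 95 of 35154 listed RBBP4 regions and 38 of 20496 listed P300 regions lay at these genes.

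The cells were NCI-H69, a long-established line from a human small cell lung tumour. Both arms were transfected with Lipofectamine RNAiMAX, with siRNA against CSNK2B in the knockdown arm and non-targeting siRNA in the control arm, and were harvested at 48 h. CSNK2B encodes the regulatory subunit of casein kinase 2. Chromatin was precipitated with antibodies against RBBP4, a histone-binding subunit of several chromatin complexes, or P300, a histone acetyltransferase.

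Each antibody had 1 library per arm, so no difference below has a replicate check, and no test of the conditions was made. For the same reason, the authors' p-values cited below measure no spread between replicates. The labels give the antibodies separate batches, so antibody and batch cannot be told apart. Arms were read from the column names alone, which for RBBP4 are single initials, and a swap would turn every direction. No RNA was measured and neither table lists a region at CSNK2B, so neither the knockdown nor the cell label could be checked by level. RBBP4 regions were listed at 2 of 8 neuroendocrine marker genes and 1 of 4 lymphoid ones, against 51.6% of all protein-coding genes. P300 regions were listed at 2 of 8 and 1 of 4, against 23.6%.

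SOX proteins bind DNA through a high-mobility-group domain that bends the helix, and forkhead proteins through a winged-helix domain. Both families direct cell fate in development, and several members open or hold chromatin for other factors. In small cell lung cancer, SOX2 is known for its expression in neuroendocrine tumours, and FOXO proteins are known in many tissues as targets of insulin and AKT signalling. These are background facts, not measurements of this series.

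Promoter windows, from 250 bases before to 50 bases after a start site, were at hand for 51 of the 70 genes, 67 windows in all. Of these, 10 windows of 8 genes shared bases with a listed RBBP4 region. Windows of 6 of these 8 genes are shown here, as they share bases with RBBP4 regions described below. The RBBP4 values belong to the regions, not to the windows. Windows of the other 2 genes, FOXO3 and FOXO3B, are not shown. These windows differ in sequence, with 42 and 40 CpG dinucleotides in those of FOXO3 and 22 in that of FOXO3B. Whether reads elsewhere in these related genes were split between them was not tested. Sequences are from RefSeq, build GRCh38.p14, written 5′ to 3′ on the strand of the gene, and capitals mark bases inside a listed RBBP4 region.
SOX4, chr6:21593501-21593800, plus strand: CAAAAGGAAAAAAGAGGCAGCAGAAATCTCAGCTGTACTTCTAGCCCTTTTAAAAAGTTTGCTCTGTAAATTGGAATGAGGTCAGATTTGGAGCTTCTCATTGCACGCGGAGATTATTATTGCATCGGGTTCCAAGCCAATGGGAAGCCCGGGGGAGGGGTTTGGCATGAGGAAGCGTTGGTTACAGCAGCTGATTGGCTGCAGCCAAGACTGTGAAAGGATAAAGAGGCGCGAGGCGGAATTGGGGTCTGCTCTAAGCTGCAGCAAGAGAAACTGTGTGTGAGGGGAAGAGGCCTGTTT
SOX12, chr20:325302-325601, plus strand: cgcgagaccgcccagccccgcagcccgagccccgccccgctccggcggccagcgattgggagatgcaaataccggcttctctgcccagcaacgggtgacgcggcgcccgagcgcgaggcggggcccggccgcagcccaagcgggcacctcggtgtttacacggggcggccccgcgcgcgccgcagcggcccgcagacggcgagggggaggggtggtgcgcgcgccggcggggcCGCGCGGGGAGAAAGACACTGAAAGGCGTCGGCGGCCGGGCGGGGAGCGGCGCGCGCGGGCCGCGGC
SOX6, chr11:16356497-16356796, minus strand: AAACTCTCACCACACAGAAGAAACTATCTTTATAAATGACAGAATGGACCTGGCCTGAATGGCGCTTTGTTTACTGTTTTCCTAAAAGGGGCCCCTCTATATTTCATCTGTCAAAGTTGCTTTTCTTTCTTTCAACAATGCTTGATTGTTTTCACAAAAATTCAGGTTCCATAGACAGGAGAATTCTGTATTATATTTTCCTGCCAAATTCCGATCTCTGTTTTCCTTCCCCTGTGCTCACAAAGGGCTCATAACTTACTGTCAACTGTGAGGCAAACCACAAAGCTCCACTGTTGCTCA
FOXP2, chr7:114414565-114414864, plus strand: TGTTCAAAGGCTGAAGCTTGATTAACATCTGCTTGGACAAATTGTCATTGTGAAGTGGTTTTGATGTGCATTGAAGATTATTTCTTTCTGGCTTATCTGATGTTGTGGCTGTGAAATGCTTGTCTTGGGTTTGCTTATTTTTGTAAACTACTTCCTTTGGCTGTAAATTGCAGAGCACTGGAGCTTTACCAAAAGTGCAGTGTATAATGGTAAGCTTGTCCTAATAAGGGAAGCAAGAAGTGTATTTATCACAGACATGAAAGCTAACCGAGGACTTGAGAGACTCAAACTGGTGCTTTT
FOXJ3, chr1:42335186-42335485, minus strand: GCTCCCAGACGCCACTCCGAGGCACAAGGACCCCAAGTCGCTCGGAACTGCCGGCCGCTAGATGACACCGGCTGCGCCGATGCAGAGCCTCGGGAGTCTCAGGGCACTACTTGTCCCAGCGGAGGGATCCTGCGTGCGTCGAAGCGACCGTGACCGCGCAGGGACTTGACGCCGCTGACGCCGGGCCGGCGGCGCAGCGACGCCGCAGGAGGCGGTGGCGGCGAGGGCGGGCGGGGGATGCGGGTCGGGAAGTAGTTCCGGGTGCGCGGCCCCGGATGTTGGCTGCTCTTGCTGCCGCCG
FOXN3, chr14:89619116-89619415, minus strand: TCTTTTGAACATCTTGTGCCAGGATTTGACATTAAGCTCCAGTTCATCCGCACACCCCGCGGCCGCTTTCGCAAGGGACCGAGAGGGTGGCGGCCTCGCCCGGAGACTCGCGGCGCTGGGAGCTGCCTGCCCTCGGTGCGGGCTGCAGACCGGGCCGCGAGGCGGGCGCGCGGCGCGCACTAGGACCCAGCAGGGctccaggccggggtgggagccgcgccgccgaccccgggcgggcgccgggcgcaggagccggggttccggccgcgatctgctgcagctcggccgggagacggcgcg

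The windows of SOX12, FOXN3 and FOXJ3 were rich in CpG, with 54, 42 and 41 CpG dinucleotides and a GC content of 80.3%, 74.3% and 72.3%. SOX4 had 8 CpG at 49.3% GC. The inner windows of SOX6 and FOXP2, far from the outer ends of these long genes, had 2 and 1 CpG at 40.0% and 38.7% GC. The median was 22 CpG in the 67 windows of the families and 14 in 35116 windows of all genes.

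Letters of known motifs were searched on both strands of each window. The forkhead letters GTAAACA were in 4 of 67 windows (5.97%), against 3.42% of all windows. The SOX letters ACAAAG were in 8 windows (11.9%), against 16.1% of all, and ACAATG in 9 (13.4%), against 10.8%. Of the E2F letters, TTTCGCGC was in 0 windows, against 0.515% of all, and TTTGGCGC in 2 (2.99%), against 0.652%. The SOX12 window holds 1 GTAAACA, which lies outside the listed region. The SOX6 window holds 1 GTAAACA, 1 ACAATG and 3 ACAAAG, of which 1 overlaps the GTAAACA. The printed FOXP2 window holds 1 ACAATG. These matches describe letters only.

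RBBP4 regions were listed at 25 of the 70 genes (35.7%), against 51.6% of all protein-coding genes. Each of these 25 had at least 1 region that was higher in the knockdown library, against a background of 46.5% of all genes. A lower region was present at 9 genes (12.9%), against 14.8% of all genes. The families therefore had a smaller share of genes with a higher region than the background, and a share with a lower region close to it. By region, 75 of 95 (78.9%) were higher, against 68.8% of all listed regions, and 20 were lower, against 31.2%.

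Reads were recovered from the deposited RPKM and scaled to the reads in all tested regions. With a pseudocount of 1 RPKM, 70 regions were at least 2-fold higher (73.7%, against 64.9% of all listed regions) and 20 at least 2-fold lower (21.1%, against 31.2%). The median log2 ratio was 1.55 at these genes and 1.49 over all listed regions. An adjusted p below 0.05 was given by the authors' deposited table to 46 higher regions of the 95 (48.4%, against 48.3% of all listed), and to 7 lower ones (7.37%, against 8.94%). By gene, these higher regions lay at 19 genes (27.1%, against 38.3% of all genes) and these lower ones at 4 (5.71%, against 5.60%).

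Depth was low. The RBBP4 regions at these genes held 21.0 reads in the median, both libraries summed, and at most 156, so 95% exact (Clopper-Pearson) intervals of the ratios, which cover counting error only, were wide. They lay above 1 for 40 of the 75 higher regions and below 1 for all 20 lower ones. The authors' log2 fold change stood 0.58 above the scaling used here, and how it was scaled was not checked. The tables list only regions with a p below 0.05, so a gene without a region is not shown to be unchanged. That p goes with the authors' scale, so the split of intervals by direction follows in part from listing and scaling.

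**Figure D1:**
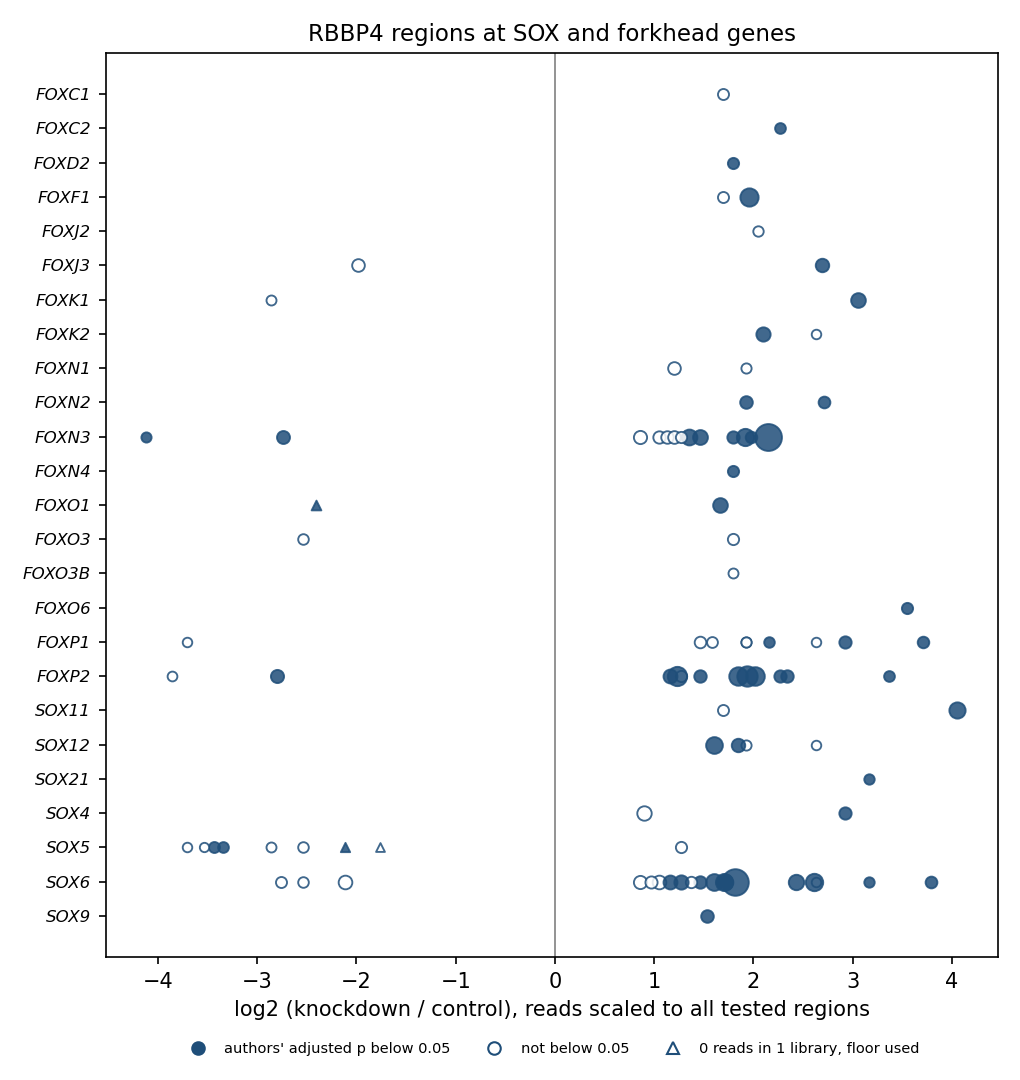
Each mark is 1 listed RBBP4 region, placed by the log2 ratio of scaled reads, knockdown over control, in the row of its gene. Mark area grows with the reads of both libraries. Filled marks passed 0.05 by the adjusted p that the authors' deposited table gives, and triangles mark regions with 0 reads in 1 library, where a floor of 3 reads stood in. SOX5 has 8 of its 9 regions left of 0, while all 25 genes have at least 1 mark right of 0.

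Among the SOX genes, all 3 of the SOXC group had RBBP4 regions, 8 in all, every one higher in the knockdown library. Over all genes 51.6% had a region, and in genes up to 10 kb, which all 3 are, 94.8% of regions were higher. SOXC proteins (SOX4, SOX11 and SOX12) are known for neuronal differentiation and for expression in many tumours. The deepest of these was at SOX11, chr2:5696304-5697823, with 48 reads (26.1 RPKM) in the knockdown library and 2 reads (1.58 RPKM) in the control library. Its ratio was 16.6 (interval 4.34 to 141), and the authors' deposited table gives 9.66e-09 as its adjusted p. A second SOX11 region held 14 knockdown and 3 control reads, and its interval, 0.898 to 17.5, included 1.

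SOX4 had a region over its start, chr6:21593323-21593996, which covers the whole window printed above. It held 27 knockdown and 10 control reads, a ratio of 1.86 whose interval, 0.874 to 4.31, included 1. A second SOX4 region, 1.67 kb inside the far end of the gene at chr6:21596307-21596945, held 22 knockdown and 2 control reads, a ratio of 7.59 (1.87 to 66.6).

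SOX12 had 4 regions. The first, chr20:324127-324894, lies upstream of the gene and over the noncoding gene NRSN2-AS1, and held 44 knockdown and 10 control reads, a ratio of 3.03 (1.50 to 6.76). The region that meets the printed window held 9 knockdown reads and 1 control read, with an interval of 0.860 to 272. Further on lay 11 knockdown against 2 control reads, and then 26 against 5, a ratio of 3.59 (1.36 to 12.0). In that last region the width was solved, so its reads are less certain and are taken to cover part of the listed span.

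SOX6 carried 19 RBBP4 regions, the most of any of the 70 genes, with 16 higher and 3 lower. SOX6 and SOX5 form the SOXD group with SOX13. They lack a transactivation domain of their own and work beside other SOX proteins in cartilage and glia, and SOX6 also in red blood cells. The deepest SOX6 region, chr11:16111437-16114131, held 127 reads (39.0 RPKM) in the knockdown library and 25 reads (11.1 RPKM) in the control library. The ratio was 3.50 (2.27 to 5.62), and by the authors' deposited table the adjusted p was 1.41e-09. Another, chr11:16454136-16454923, held 53 knockdown and 6 control reads, a ratio of 6.09 (2.62 to 17.3).

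Further higher SOX6 regions held 47 knockdown and 10 control reads, 44 and 10, 39 and 5, 38 and 8, and 20 and 1. Their ratios ran from 3.03 to 13.8, all with intervals above 1. In all, 11 higher SOX6 regions passed an adjusted p of 0.05 by the authors' deposited table. The other higher ones held 28 knockdown and 8 control reads, 24 and 8, 21 and 8, 20 and 5, 17 and 6, 15 and 4, 13 and 1, and 9 and 1. The region over the printed inner start, chr11:16356239-16356864, held 26 knockdown and 8 control reads, a ratio of 2.24 (0.986 to 5.73). The 3 lower regions held 8 knockdown and 24 control reads, 3 and 14, and 3 and 12, and none of them passed that threshold by the authors' deposited table.

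SOX5 ran the other way, with 8 of 9 RBBP4 regions lower. In chr12:23698523-23699099 there were 2 knockdown reads (2.87 RPKM) and 15 control reads (31.2 RPKM), a ratio of 0.0920 (0.0102 to 0.395). In chr12:24293587-24293922 there were 2 knockdown and 14 control reads, a ratio of 0.0985 (0.0109 to 0.429). Another, chr12:23563107-23563405, held 0 knockdown and 9 control reads. With the floor of 3 reads put for 0 it was 4.35-fold lower, and its interval reached as near to 1 as 2.86-fold lower. For these 3 the authors' deposited table gives adjusted p-values of 0.0231, 0.0334 and 0.0280.

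The other lower SOX5 regions held 3 knockdown and 12 control reads, 2 and 10, 1 and 9, 1 and 8, and 0 and 7. The only higher one held 14 knockdown and 4 control reads, with an interval of 0.758 to 10.1. So the 2 SOXD genes with regions, were listed mostly in opposite directions. There were 342 protein-coding genes longer than 400 kb with at least 5 RBBP4 regions. Of these, 7, SOX5 among them, had a share of lower regions at least as large as SOX5. A share of higher ones at least as large as SOX6 was found in 84, SOX6 among them. SOX5 and SOX6 were looked at side by side after their values were seen, so this is a description.

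SOX9 and SOX21 had 1 region each, both at the gene. SOX9, which directs cartilage and progenitor fates, held 21 knockdown and 5 control reads at chr17:72120477-72121149, a ratio of 2.90 (1.06 to 9.83). SOX21, a SOXB factor that counters the activating SOXB factors, held 13 knockdown reads and 1 control read, a ratio of 8.97 (1.35 to 381). Both regions also overlap antisense genes, SOX9-AS1 and SOX21-AS1, and ChIP reads do not tell the strands apart. SOX2, SOX1 and SOX3, the activating SOXB factors, had none listed, the nearest to SOX2 lying 37.6 kb away and to SOX1 831 kb away.

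Among forkhead genes, the FOXN and FOXP groups held most of the RBBP4 regions, with 18 and 21 of 57. Most of these were in FOXN3 (13), FOXP2 (12) and FOXP1 (9), each longer than 400 kb, while FOXP3 and FOXP4 had 0. FOXN3, a repressor known from checkpoint control, had 11 higher and 2 lower regions. Its deepest, chr14:89166789-89167806, was the deepest of all 95, with 135 reads (110 RPKM) in the knockdown library and 21 reads (24.8 RPKM) in the control library. The ratio was 4.43 (2.79 to 7.40), and 9.85e-12 is the adjusted p that the authors' deposited table gives. It lies 10.6 kb inside the far end of the gene.

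Further higher FOXN3 regions held 49 knockdown and 9 control reads, 37 and 10, 32 and 8, and 20 and 4, with ratios from 2.55 to 3.76 and intervals above 1. The rest of the higher ones inside the gene held 21 and 8, 20 and 6, 19 and 6, 18 and 6, and 17 and 3, the last with a solved width. Near the outer start, the region that meets the printed window held 14 knockdown and 4 control reads, with an interval of 0.758 to 10.1. The lower regions lay nearer the start than most higher ones. At chr14:89562072-89562883 there were 5 knockdown and 23 control reads, a ratio of 0.150 (0.0445 to 0.403). At chr14:89590920-89591264 there were 1 knockdown read and 12 control reads, a ratio of 0.0575 (0.00134 to 0.388).

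Of the other FOXN genes, FOXN2 had 2 regions inside 1 end of the gene, with 19 knockdown and 2 control reads, a ratio of 6.55 (1.58 to 58.0), and 22 and 4, a ratio of 3.79 (1.29 to 15.1). FOXN1, known for the thymus, had 20 knockdown and 6 control reads in 1 region and 11 and 2 in another, and both intervals included 1. FOXN4, known for retinal and spinal interneurons, had 15 knockdown and 3 control reads, with an interval of 0.976 to 18.6.

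FOXP2, a repressor known for neural circuits of speech, had 10 higher and 2 lower regions. The deepest, chr7:114530048-114530948, held 72 reads (66.2 RPKM) in the knockdown library and 13 reads (17.3 RPKM) in the control library, a ratio of 3.82 (2.10 to 7.52). Beyond it, 59 knockdown and 10 control reads gave a ratio of 4.07 (2.06 to 8.92), and 58 and 17 gave 2.35 (1.35 to 4.31). The region over the inner start printed above, chr7:114414255-114415304, held 57 knockdown and 11 control reads, a ratio of 3.57 (1.86 to 7.56). For these 4, in this order, the adjusted p-values of the authors' deposited table were 7.83e-07, 3.38e-06, 5.83e-04 and 1.49e-05.

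The other higher FOXP2 regions held 26 knockdown and 8 control reads, 22 and 3, 21 and 3, 20 and 5, 15 and 1, and 14 and 4. Between the deeper ones lay a lower FOXP2 region, chr7:114551858-114552715, with 5 knockdown and 24 control reads, a ratio of 0.144 (0.0428 to 0.384). The other lower one held 1 knockdown read and 10 control reads. Over the 342 long genes with at least 5 regions, 97, FOXP2 among them, had a share of higher regions at least as large as FOXP2. FOXP1, a related repressor known in B cells and neurons, had 8 higher regions and 1 lower. Its largest ratios were 13.1 (2.08 to 545), from 19 knockdown reads and 1 control read, and 7.59 (1.87 to 66.6), from 22 and 2. Its other higher regions held 16 knockdown and 4 control reads, 13 and 3, 13 and 2, 11 and 2 in a pair of regions, and 9 and 1. The lower region held 1 knockdown read and 9 control reads.

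**Figure D2:**
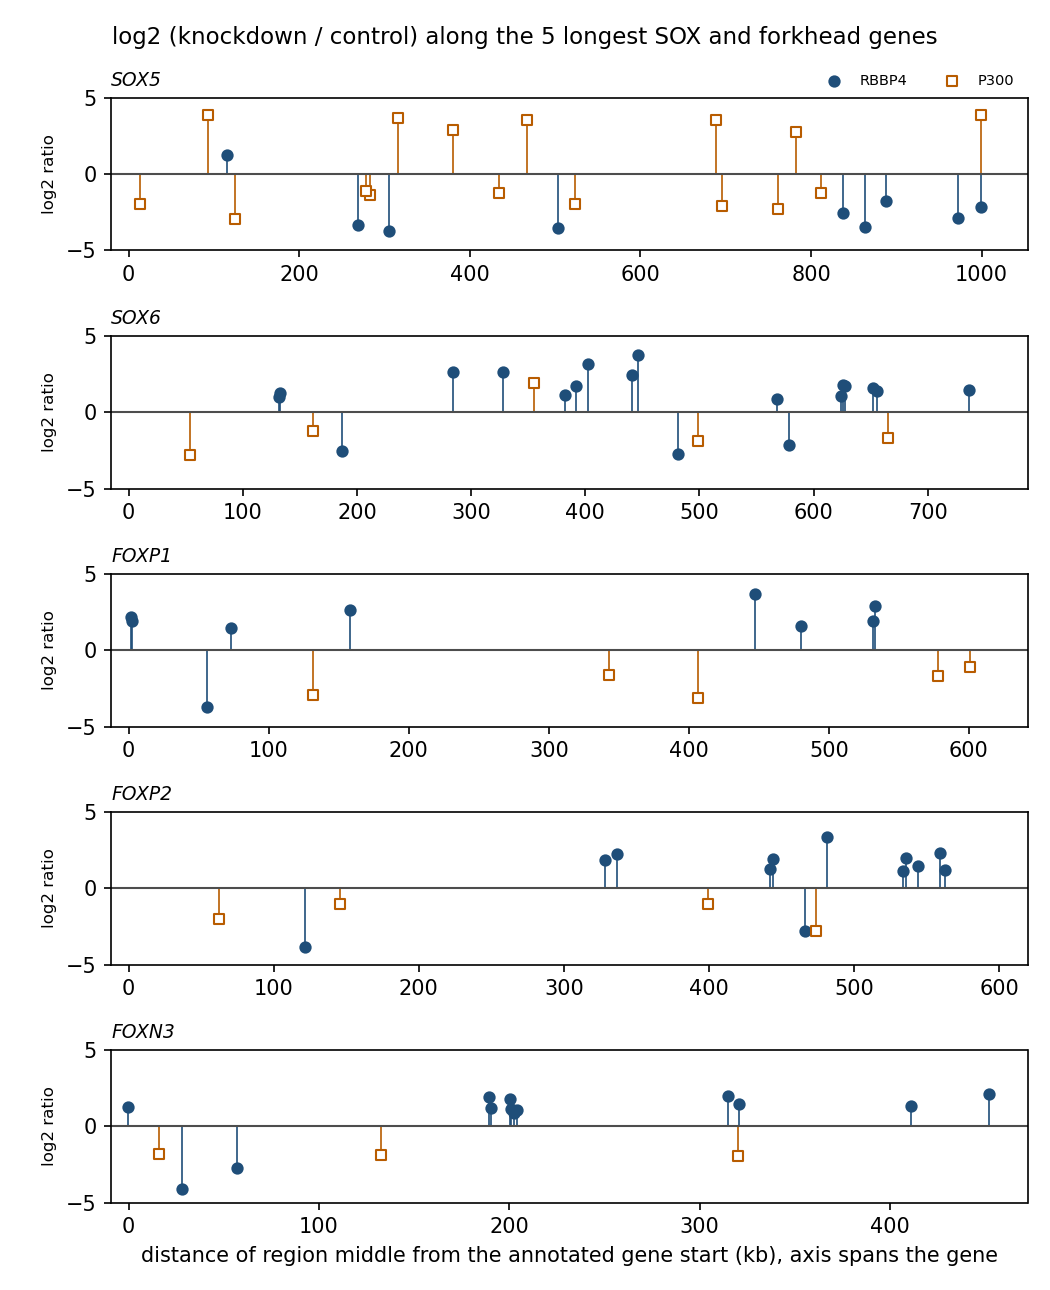
Listed regions along SOX5, SOX6, FOXP1, FOXP2 and FOXN3, placed by the distance of their middle from the annotated gene start (horizontal axis, kb) and by the log2 ratio of scaled reads, knockdown over control (vertical axis). Filled circles are RBBP4 and open squares P300, with 1 library per arm and a floor of 3 reads where a library had 0. RBBP4 marks lie above 0 for 16 of 19 SOX6 regions and below 0 for 8 of 9 SOX5 regions, and P300 marks of FOXP1, FOXP2 and FOXN3 all lie below 0.

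The FOXO genes, several of whose proteins leave the nucleus when phosphorylated by AKT, had regions at 4 of 5, against 51.6% of all genes. FOXO1 had 1 of each direction. Near its start, chr13:40664350-40665339 held 32 knockdown and 7 control reads, a ratio of 3.15 (1.37 to 8.46). Inside its far end, by 2757 bp, chr13:40558424-40558743 held 0 knockdown and 11 control reads. With the floor of 3 reads it was 5.32-fold lower, and its interval reached as near to 1 as 3.64-fold lower. The authors' deposited table gives 0.0109 as its adjusted p. It was the single lower region of the families at a gene end.

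FOXO6 held 17 knockdown reads and 1 control read in 1 region 4.74 kb from its start, a ratio of 11.7 (1.84 to 490). At the start of FOXO3 lay 15 knockdown and 3 control reads, and at FOXO3B 10 and 2, both with intervals that included 1. The width of that FOXO3 region was solved, so its reads are less certain and are taken to cover part of the span. An inner FOXO3 region held 3 knockdown and 12 control reads.

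FOXK1 and FOXK2, repressors that recruit Sin3 complexes, both had regions deep inside the gene. FOXK1 at chr7:4744828-4745486 held 36 knockdown and 3 control reads, a ratio of 8.28 (2.62 to 42.0). FOXK2 at chr17:82592912-82593582 held 31 knockdown and 5 control reads, a ratio of 4.28 (1.65 to 14.1). FOXK1 also had a lower region, with 2 knockdown and 10 control reads. In FOXJ3 the region over the printed start window, chr1:42335054-42335814, held 28 knockdown and 3 control reads, a ratio of 6.44 (1.99 to 33.1), while an inner region held 7 and 19, a ratio of 0.254 (0.0903 to 0.631). FOXJ2 held 12 knockdown and 2 control reads near its start.

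FOXF1 and FOXC2 lie near FOXL1 on chromosome 16 and had 2 and 1 RBBP4 regions, all higher, while FOXL1 had 0. FOXF1, a mesenchymal factor of lung development, had the deepest, at chr16:86508307-86511006, with 56 knockdown and 10 control reads, a ratio of 3.86 (1.95 to 8.49). Its width was solved, so the reads are less certain and are taken to cover part of the span. The region also overlaps the noncoding gene FENDRR. FOXC2, known for lymphatic vessels, held 14 knockdown and 2 control reads at 2947 bp from the gene, a ratio of 4.83 (1.11 to 43.8). FOXC1 and FOXD2 held 14 knockdown and 3 control reads, and 15 and 3, with intervals that included 1.

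**Figure D3:**
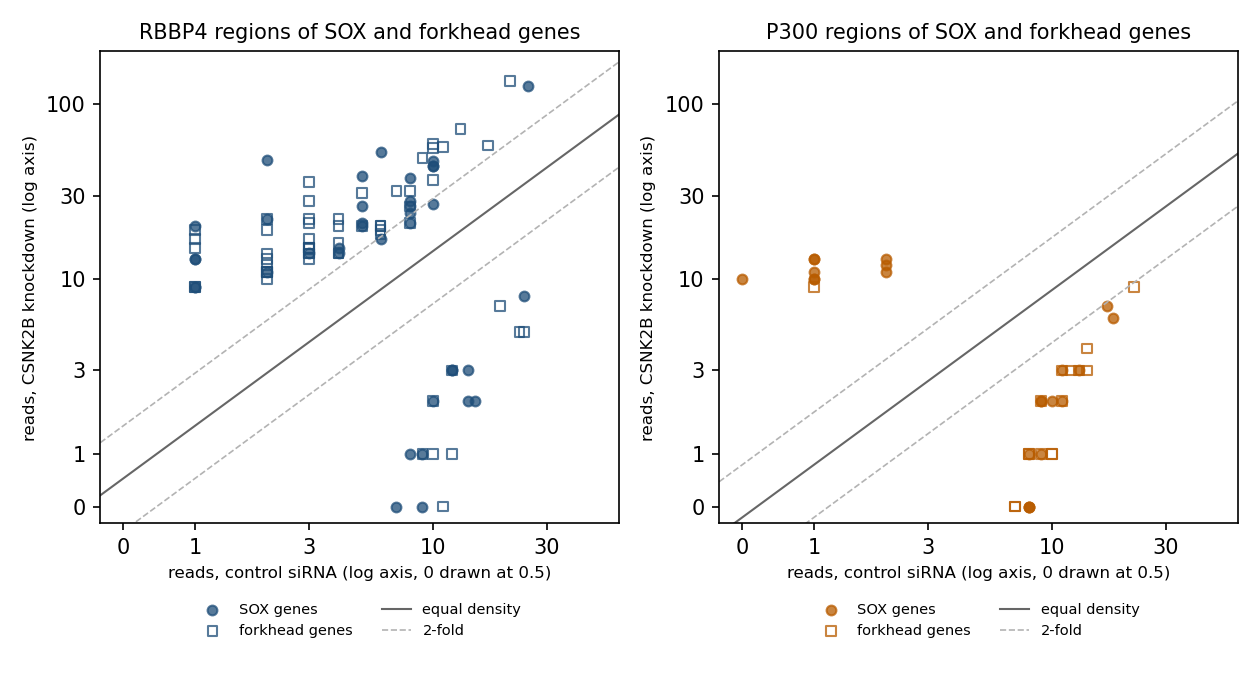
Reads in the knockdown library (vertical, log axis) against reads in the control library (horizontal, log axis, 0 drawn at 0.5) for the 95 RBBP4 regions (left) and 38 P300 regions (right). The solid line marks equal density over all tested regions and the dashed lines 2-fold. RBBP4 points above the line reach 135 knockdown reads, whereas no P300 region exceeds 31 reads in both libraries together.

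Regions followed gene length. Of the 49 genes up to 10 kb, 9 had an RBBP4 region (18.4%), against 31.3% of all genes of that length, and all 15 of their regions were higher, against 94.8% of regions over all such genes. From 10 to 100 kb it was 8 of 13 (61.5%), against 53.0%. From 100 to 400 kb it was 3 of 3, against 79.6%, and 3 of their 6 regions were higher, against 74.3% over all such genes. All 5 genes over 400 kb had regions, against 94.2% of such genes, and they held 62 of the 95. Their density was 17.5 regions per Mb, against 11.7 over all genes of this class, and 74.2% were higher, against 66.4%. Within 3000 bp of an end, 16 of the 70 genes had a higher region (22.9%, against 36.3% of all genes) and 1 a lower one (1.43%, against 2.82%). With an adjusted p below 0.05 by the authors' deposited table it was 11 genes higher (15.7%, against 29.7%) and 1 lower (1.43%, against 0.909%).

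**Figure D4:**
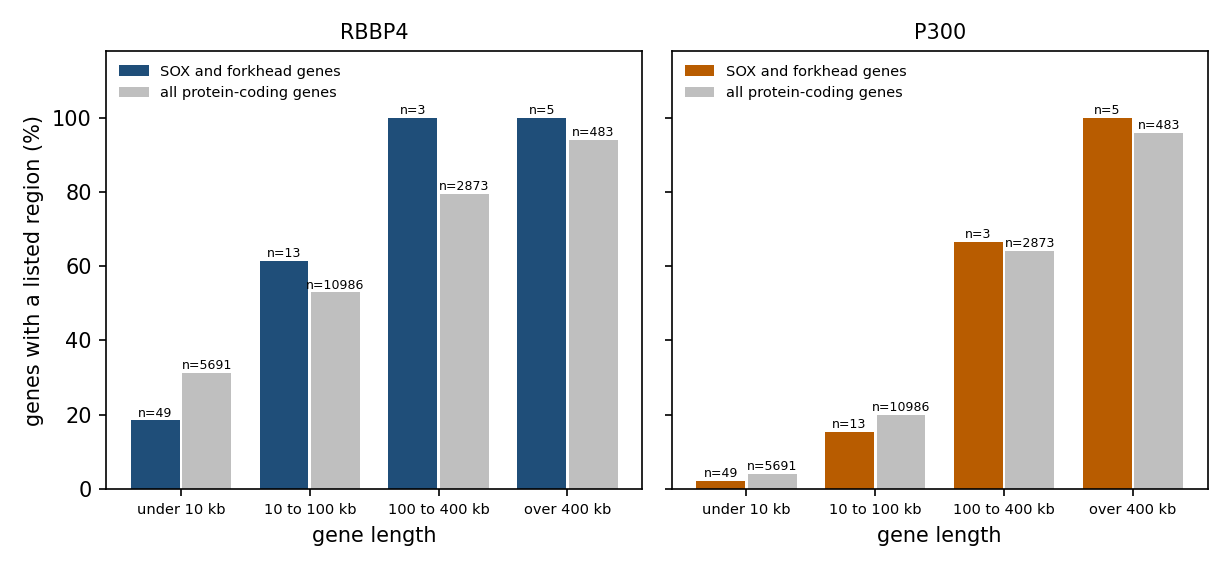
Share of genes with at least 1 listed region (vertical, percent) by gene length, for the SOX and forkhead genes (coloured) and all protein-coding genes (grey), with the number of genes over each bar. RBBP4 is on the left and P300 on the right. For RBBP4 the share of the families is 18.4% against 31.3% in the shortest class, and 100% against 94.2% in the longest.

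P300 regions were listed at 10 of the 70 genes (14.3%), against 23.6% of all protein-coding genes. A higher region was present at 4 genes (5.71%, against 11.5%) and a lower one at 8 (11.4%, against 17.7%). Of the 38 regions, 10 were at least 2-fold higher (26.3%, against 34.7%) and 28 at least 2-fold lower (73.7%, against 64.3%). No P300 region of any gene passed 0.05 by the adjusted p of the authors' deposited table, where the lowest was 0.260. The authors' log2 fold change stood 0.44 below the scaling used here. The intervals lay below 1 for 14 of the 28 lower regions and above 1 for all 10 higher ones. As for RBBP4, this split follows in part from listing and scaling.

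Forkhead genes had 15 lower P300 regions of 16 (93.8%), against 65.3% of all listed P300 regions. Most of them lay in FOXP1, FOXP2 and FOXN3, each over 400 kb. Over all genes of that length, 33.7% of P300 regions were higher. FOXP1 had 5, all lower, and the deepest, chr3:70982827-70983440, held 9 knockdown reads (15.5 RPKM) and 22 control reads (32.8 RPKM), a ratio of 0.472 (0.191 to 1.07). The others held 4 knockdown and 14 control reads, 3 and 11, 1 and 10, and 1 and 9. FOXP2 had 4, with 3 knockdown and 14 control reads, a ratio of 0.247 (0.0456 to 0.887), then 1 and 8, and 0 and 7 in both of the rest. FOXN3 had 3, with 3 knockdown and 13 control reads, 3 and 12, and 2 and 9.

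Within 3000 bp of an end, 1 gene had a P300 region (1.43%, against 6.04% of all genes), which was lower (against 3.73%), and 0 genes had a higher one (against 2.39%). FOXO1 held 2 knockdown and 11 control reads and FOXJ3 held 1 and 8. FOXN4 was the only forkhead gene with a higher region, with 9 knockdown reads and 1 control read, a ratio of 10.4 (1.44 to 456).

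Of the 22 P300 regions at SOX genes, 9 were higher (40.9%, against 34.7% of all listed) and 13 lower (59.1%, against 65.3%). SOX5 had 16 of these 22, with 7 higher and 9 lower. Both regions with 13 knockdown reads and 1 control read had a ratio of 15.0 (2.25 to 638), and others held 13 and 2, 12 and 2, 11 and 1, and 10 and 1 in a pair of regions. The lower ones with the most reads held 6 knockdown and 18 control reads, a ratio of 0.385 (0.125 to 1.01), and 7 and 17, a ratio of 0.475 (0.167 to 1.21). SOX6 had 1 higher region, with 10 knockdown and 0 control reads, and 4 lower ones, the deepest with 3 and 13. SOX30, known for male germ cells, held 11 knockdown and 2 control reads, a ratio of 6.35 (1.39 to 59.0).

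**Figure D5:**
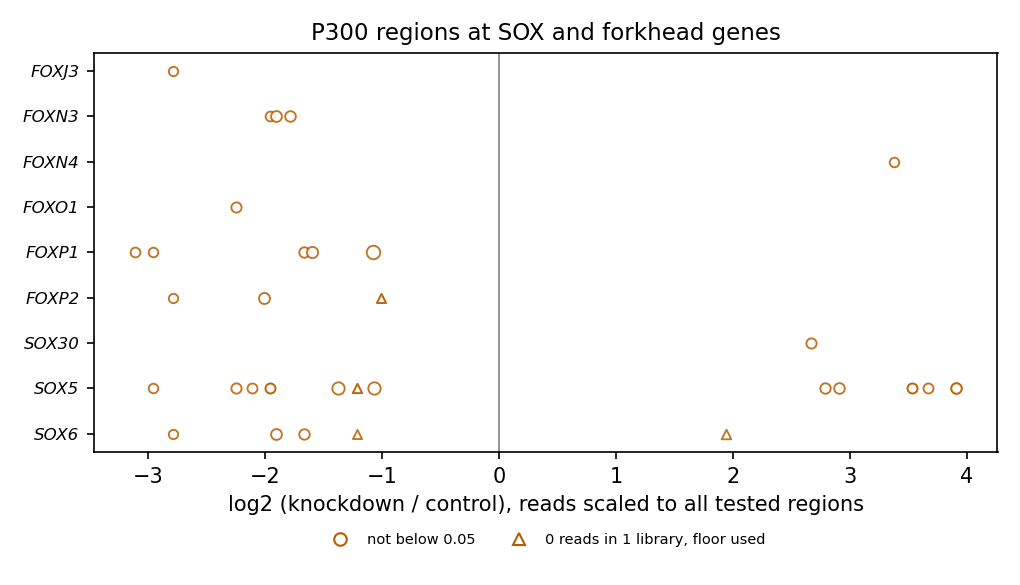
Each mark is 1 listed P300 region of the 9 genes drawn, placed by the log2 ratio of scaled reads, knockdown over control, in the row of its gene. By the authors' deposited table no mark passes an adjusted p of 0.05, and triangles mark regions with 0 reads in 1 library, where a floor of 3 reads stood in. FOXP1, FOXP2 and FOXN3 lie wholly left of 0, and the 16 SOX5 marks fall on both sides, 7 right and 9 left.

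Of the 70 genes, 8 had regions with both antibodies and 43 with neither. Regions of the antibodies overlapped at 3 genes. At FOXN3 the RBBP4 region with 32 knockdown and 8 control reads shared 206 bp with the P300 region of 2 and 9. At SOX5 the RBBP4 region with 0 knockdown and 9 control reads shared 134 bp with a P300 region of 13 and 1. At FOXN4 both were higher, with 13 bp shared. Over both whole tables, 157 of 317 overlapping pairs (49.5%) had opposite directions.

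The 43 genes without a listed region were SOX1, SOX2, SOX3, SOX7, SOX8, SOX10, SOX13, SOX14, SOX15, SOX17, SOX18, FOXA1, FOXA2, FOXA3, FOXB1, FOXB2, FOXD1, FOXD3, FOXD4, FOXD4L1, FOXD4L3, FOXD4L4, FOXD4L5, FOXD4L6, FOXE1, FOXE3, FOXF2, FOXH1, FOXI1, FOXI2, FOXI3, FOXJ1, FOXL1, FOXL2, FOXL2NB, FOXL3, FOXO4, FOXP3, FOXP4, FOXQ1, FOXR1, FOXR2 and FOXS1. The nearest RBBP4 region lay 3.56 to 831 kb from them, with a median of 37.6 kb. Just outside the 3000 bp limit were regions near FOXB2 at 3.56 kb, with 35 knockdown and 2 control reads, and near SOX15 at 4.20 kb, with 27 and 1. Just inside it were FOXC2 at 2947 bp, with 14 and 2, and FOXF1 at 2787 bp, with 14 and 3.

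Other genes of the pathways were taken from 3 lists. These lists were chosen with earlier results of these data known, so their counts are a description. The shares of all genes set beside them were not matched for gene length. Of 15 SOX partners and forkhead corepressors, 11 had a higher RBBP4 region (against 46.5% of all genes) and 2 a lower one (against 14.8%). The deepest was at TLE4, a Groucho corepressor, with 312 knockdown and 26 control reads, a ratio of 8.28 (5.54 to 12.9), while lower TLE4 regions held 1 and 11, and 3 and 16. POU2F1, a POU factor that pairs with SOX proteins, held 69 and 15, a ratio of 3.17 (1.80 to 5.97). Of 15 FOXO regulators, 11 had a higher and 4 a lower region, against the same background. AKT1, a kinase that keeps several FOXO proteins out of the nucleus, held 48 knockdown and 12 control reads, a ratio of 2.76 (1.44 to 5.71). PIK3R1, a regulatory subunit of the kinase upstream of AKT, held 40 and 5, while STK4, a kinase that acts on FOXO, held 5 and 25, a ratio of 0.138 (0.0412 to 0.367).

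Of 22 FOXO target genes, 19 had a higher RBBP4 region (against 46.5% of all genes) and 5 a lower one (against 14.8%). This list, too, was chosen with earlier results of these data known. FBXO32, a muscle ubiquitin ligase, had 5 higher regions. The deepest, chr8:123508030-123509471, held 805 knockdown and 129 control reads, a ratio of 4.30 (3.57 to 5.22). The next held 454 and 100, a ratio of 3.13 (2.52 to 3.93). All 5 FBXO32 regions held 135 to 934 reads, both libraries summed, against a median of 19 over all listed RBBP4 regions. Whether this depth is shared by the surrounding part of chromosome 8 was not tested. CCNG2, an unusual cyclin, held 65 knockdown and 17 control reads, a ratio of 2.64 (1.53 to 4.80). BCL6, a repressor, held 55 and 9, a ratio of 4.22 (2.07 to 9.70), and BBC3, a pro-apoptotic protein, held 50 and 5, a ratio of 6.90 (2.77 to 22.2). Among the lower regions of these targets, BCL2L11, a pro-apoptotic protein, held 0 knockdown and 10 control reads, and SESN1, a stress-induced sestrin, held 1 and 11. Median log2 ratios of the 3 lists were 1.77, 1.69 and 1.71, against 1.49 over all listed regions. P300 regions were listed at 5 of 15, 7 of 15 and 3 of 22 genes of these lists, against 23.6% of all genes.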

How the data were processed

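RBBP4 and P300 ChIP-seq of NCI-H69 cells comprised 8 libraries, 4 immunoprecipitated and 4 input, sequenced per the labels' protocols as paired 150 bp reads. The input libraries were not used here. Tools in the submitters' processing notes include ChIPseeker 1.28.3, DiffBind 3.4.11, MACS2 2.2.7.1, Bowtie2 2.4.5, Trim Galore 0.6.7 and FastQC, and the build there is GRCh38. Which step each served is not given in the sources used here.

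For each antibody 1 region table was deposited, in which the authors give an RPKM value per arm. The log2 fold change, the mean log2 CPM, the p-value and the adjusted p are the authors' too, per the file headers, and every deposited p-value was below 0.05. A beta-binomial formula with a dispersion of 0.01 returned the RBBP4 p-values, with a median absolute log10 difference of 6.3e-12. For P300 that difference was 0.22. With 1 library per arm, such a dispersion could not be measured between replicates. The number of tested regions, 95329 for RBBP4 and at least 134012 for P300, was worked out from the ratio of p to adjusted p. Reads were recovered as RPKM times width times a total, assumed to count the reads of every tested region (not checked). These totals were 1207945 and 833181 for RBBP4 knockdown and control, and 946392 and 1092789 for P300. Reads came out whole within 0.01 for 98.3% of RBBP4 and 99.4% of P300 regions. For the other 596 and 132 a narrower width was solved that returned the deposited log2 fold change. As the fold change was the target, its return is no check. Among these are 4 regions of the families. The solved FOXO3 region and the unsolved FOXD2 region both came out at 15 knockdown and 3 control reads. Their p-values in the authors' deposited table were 0.0206 and 0.0103, so solved reads may be wrong. A mismatch of this kind was counted for 66.9% of the solved RBBP4 regions and 4.55% of the solved P300 ones. On simulated data the step recovered the reads of 99.98% of 35154 RBBP4 and 100.00% of 20496 P300 regions. The simulation used the same formula and totals as the step. It therefore cannot check the assumed total, or whether a narrower width is right for the real regions.

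Ratios are reads scaled to these totals, with 95% Clopper-Pearson intervals and a floor of 3 reads for 0. Thresholds used log2(RPKM + 1), and that scale understates changes at low values. Regions were joined by coordinates to RefSeq genes and promoters of GRCh38.p14. Exons and introns were not annotated here. Regions given in full were drawn from those that passed an adjusted p of 0.05 by the authors' deposited table, about 20 to 30 of them, deepest first, with every lower one of the families that passed, and for P300 by most reads. Other regions are given by reads or counts. Genes of the related lists are named for the most reads, and passing lower regions beside them were added after their values were seen. The values of 1 gene, which stays in the counts, are not reported here. The genes and lists were chosen with earlier results of these data known. Alternatives were other span extensions, pseudocounts, scaling, a read minimum, thresholds, overlap and dispersion. Tools were Python 3.11.15, numpy 2.4.6, pandas 2.3.3, scipy 1.17.1 and matplotlib 3.10.9.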

Additional observations from a re-analysis of the deposited data

Results flagged for a closer look

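At 2 genes an RBBP4 and a P300 region overlapped and were listed in opposite directions, knockdown against control. At FOXN3 the log2 ratio of scaled reads was 1.46 for RBBP4 and -1.96 for P300. At SOX5 it was -2.12 for RBBP4, with the floor of 3 reads for 0, and 3.91 for P300. The FOXN3 P300 region held 2 knockdown and 9 control reads, and the interval of its ratio, 0.0270 to 1.24, included 1. Over both whole tables, 49.5% of overlapping pairs had opposite directions. The difference between the antibodies was not tested, as each antibody had 1 library per arm, and antibody and batch cannot be told apart.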

How the results depend on the processing

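No result reversed under any alternative run, 94 of the main values stayed within 1.5 times (counts) or their spread (medians), and all 399 values of single regions stayed inside their counting intervals. Those intervals are open on 1 side for regions with 0 reads, where the pseudocount sets the value: with 0.1 RPKM the log2 ratio was -8.69 at FOXO1, against -5.4 with 1 RPKM, and -8.5 and -8.15 at SOX5, against -5.21 and -4.88. The spreads of medians and the counting intervals were wide, so staying inside them is a weak check. With the alternative scaling, the RBBP4 median log2 ratio was 2.22, against 1.55, and was still counted as within its spread. The exceptions among the main values were these. With gene spans extended by 1000 bp, the count of genes with a lower region at an end was 0 for RBBP4 and 0 for P300. Without extension it was 0 for both, and the count of genes with a higher RBBP4 region at an end was 5. With 10000 bp these were 4 for RBBP4 lower, 4 for P300 lower and 26 for RBBP4 higher. With at least 20 reads, genes with an RBBP4 region numbered 15 higher and 4 lower, and regions past 2-fold 43 higher and 4 lower. For P300 that minimum left 0 genes higher and 2 lower, and 0 regions higher and 3 lower. Past 4-fold there were 22 RBBP4 regions higher and 15 P300 regions lower. Lower RBBP4 regions numbered 0 when the authors' deposited table was read at an adjusted p of 0.01, and 2 with p recomputed at a dispersion of 0.04. These follow from fewer or more regions entering the count. No paired analysis was possible because each antibody had 1 library per arm. Low depth limits all P300 values.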
